A study of Mus musculus with 32 samples.

Results

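Hepcidin and the acute phase genes of the mouse liver were followed here through 6 genes, chosen by name. Hamp, Saa1, Saa4 and Socs3 are in the table of experiment T, which lists 306 genes. Orm2 and Saa3 are in the table of experiment P, which lists 242 genes, so the 6 genes are 6 of the 548 rows of both tables. Neither table holds a gene of the other experiment's set, so no gene of the 6 could be compared between P and T. The libraries are liver total RNA of C57BL/6J mice, and in each experiment 8 libraries are labelled as vehicle and 8 as SXB, which makes 32 in all. SXB is sodium oxybate, the sodium salt of gamma-hydroxybutyrate, a drug given in narcolepsy, and the study asked how it acts in mice with obesity that is developing or already established. The labels call P experiment 2 and T experiment 1, and do not say which of the obesity settings each is, nor the diet, sex, age or dose.

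Hepcidin is a peptide hormone that hepatocytes secrete and that closes the iron exporter ferroportin, so that iron uptake from the gut and iron release from macrophages fall. Its gene is switched on by iron through BMP and SMAD signalling and by inflammation through interleukin-6 and STAT3. The same cytokines, with interleukin-1, switch on the acute phase proteins of the liver, among them the serum amyloid A apolipoproteins and the orosomucoids, and Socs3, which is itself a STAT3 target, switches the cytokine signal off.

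In the mouse annotation of build GRCm38 all 6 genes are protein-coding. Hamp (ENSMUSG00000050440) lies at chr7:30942368-30944032 on the minus strand, with 3 exons, and a gene model, Gm44662, overlaps it on the opposite strand. The serum amyloid A genes form a cluster on the same chromosome. Saa3 (ENSMUSG00000040026) spans chr7:46711998-46715700, Saa4 (ENSMUSG00000040017) spans chr7:46727998-46732603 and Saa1 (ENSMUSG00000074115) spans chr7:46740497-46742980, all on the minus strand. They are separated by 12297 bases between Saa3 and Saa4 and by 7893 bases between Saa4 and Saa1. Orm2 (ENSMUSG00000061540), at chr4:63362449-63365878 on the plus strand, lies 2937 bases from its paralog Orm3. Socs3 (ENSMUSG00000053113), at chr11:117966079-117970047 on the minus strand, has 2 exons.

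Close copies of these genes could share reads. The coding sequence of Saa1 was 95.1% identical to that of Saa2, 74.3% to that of Saa3 and 64.4% to that of Saa4. That of Hamp was 93.6% identical to Hamp2, and that of Orm2 was 89.9% identical to Orm1 and 87.9% to Orm3. The split of reads between Saa1 and Saa2, Hamp and Hamp2, or Orm2 and its paralogs is therefore uncertain, and the sources used here do not state whether reads were counted by strand.

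The start regions of 4 genes are printed because Hamp is the gene of the 6 that passed a test and because Saa1, Saa3 and Orm2 varied the most between libraries of a group. They are from RefSeq, build GRCm38.p6, and run from 250 bases before to 50 bases after the start, 5′ to 3′ on the strand of the gene. The windows are chr7:30943980-30944279 (minus strand) for Hamp, chr7:46742931-46743230 (minus strand) for Saa1, chr7:46715627-46715926 (minus strand) for Saa3 and chr4:63362199-63362498 (plus strand) for Orm2. Capitals mark matches to a searched motif, which are the letters GGCGCC of the BMP response element and TTCNNNGAA of a STAT site in Hamp, and TTGCNNAA or its reverse TTNNGCAA of a C/EBP site in the others.
Hamp: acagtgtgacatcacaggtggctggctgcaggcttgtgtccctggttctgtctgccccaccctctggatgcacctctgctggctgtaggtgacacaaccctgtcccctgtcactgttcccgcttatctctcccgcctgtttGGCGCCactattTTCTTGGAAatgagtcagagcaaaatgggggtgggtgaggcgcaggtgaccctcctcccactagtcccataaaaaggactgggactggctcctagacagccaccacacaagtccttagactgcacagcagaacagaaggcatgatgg
Saa1: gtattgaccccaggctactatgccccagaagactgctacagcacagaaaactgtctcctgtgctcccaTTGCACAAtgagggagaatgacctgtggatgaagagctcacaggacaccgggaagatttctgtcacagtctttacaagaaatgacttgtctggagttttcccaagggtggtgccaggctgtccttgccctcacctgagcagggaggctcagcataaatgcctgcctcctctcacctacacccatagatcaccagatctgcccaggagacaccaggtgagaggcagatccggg
Saa3: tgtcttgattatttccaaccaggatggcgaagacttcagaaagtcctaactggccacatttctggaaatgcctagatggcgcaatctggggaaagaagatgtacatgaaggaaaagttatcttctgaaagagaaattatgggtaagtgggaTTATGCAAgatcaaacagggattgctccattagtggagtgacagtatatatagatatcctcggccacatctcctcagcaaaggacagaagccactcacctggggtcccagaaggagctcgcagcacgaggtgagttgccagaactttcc
Orm2: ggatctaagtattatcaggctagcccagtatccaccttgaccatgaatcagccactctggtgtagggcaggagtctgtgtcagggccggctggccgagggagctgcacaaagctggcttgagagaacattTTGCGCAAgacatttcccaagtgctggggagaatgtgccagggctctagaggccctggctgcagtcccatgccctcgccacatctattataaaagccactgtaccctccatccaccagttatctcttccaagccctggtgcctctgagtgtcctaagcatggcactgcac

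All 6 genes had an entry in the promoter table, and 4 motifs were searched on both strands. The Hamp window held GGCGCC from position -109 to -104 and TTCTTGGAA from -97 to -89, so the matches lie next to each other without overlap. The Socs3 window held both letters too, TTCTTAGAA from -154 to -146 and GGCGCC from -61 to -56. That window, chr11:117969317-117969616 (minus strand), lies inside the gene span given above. Its positions thus count from the RefSeq start and not from the start of that span. A C/EBP match was found in Saa1, Saa4, Orm2 and Saa3, which are 4 of the 6 genes. An NF-kB consensus was in none of the 6 windows. Of 32851 promoters of the same length, 8.30% held the STAT letters, 11.9% the BMP letters, 10.8% the C/EBP letters and 1.2% the NF-kB consensus. These matches describe the sequence only and say nothing of a factor at the site.

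The library values are expression values that the authors normalised, and whether they are TPM or FPKM is not stated, so levels were compared between libraries and not between genes. The tables give no counts, so the depth behind each value is unknown. They list only genes that the authors' own test had picked on the same libraries by an absolute log2 fold change above 1, so the tests below are not independent evidence and their adjusted p-values adjust only over picked genes. Some libraries stand apart. Libraries 16 (label vehicle) and 18 (label SXB) are each placed among the columns of the opposite group in the table of T, so the results of T are given with and without them. In T, libraries 1 to 4 (1 vehicle and 3 SXB) listed the mitochondrial gene mt-Atp6 at 486.4 to 6422, and all others at 44.8 or less. In P, vehicle libraries 33, 34 and 35 held the 3 highest Saa3 values, and for Orm2 SXB library 25 lay between them. The labels tie no library to a mouse of its own, and p-values therefore describe the spread between libraries, which may be technical.

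Hamp was higher in livers of SXB-treated mice in experiment T, by 2.12-fold when libraries 16 and 18 were left out and by 1.53-fold under all labels, and it passed the test in the former case only. With vehicle the 8 values had a lowest of 3439, a median of 9953 and a highest of 32560, which is library 16. With SXB the lowest was 11692, which is library 18, the median 17076 and the highest 27352. All 8 SXB libraries lay above the vehicle median, and the groups overlapped through library 16, the highest of all 16, and through vehicle libraries 10 and 6, which lay above SXB library 18. The vehicle mean was 12154 ± 8947 (SD, n = 8) and the SXB mean 18625 ± 4911 (n = 8). The log2 difference was 0.85 (SE 0.35, limma adjusted p = 0.167), so Hamp did not pass over the 306 genes, of which 0.00% passed. Limma gave 90 genes and the exact permutation test 97 genes an unadjusted p below 0.05, and neither gave a gene an adjusted p below 0.05. In liver tissue, a change in the number of cells of a type and a change in RNA per cell cannot be told apart.

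Without libraries 16 and 18, which held the highest vehicle and the lowest SXB value, the Hamp values of the groups did not overlap. The 7 vehicle libraries ran from 3439 (library 11) over a median of 9373 to 14837 (library 10), and the 7 SXB libraries from 15473 (library 12) over a median of 17720 to 27352 (library 7). Groups without overlap were found for 0.980% of the 306 genes (3 genes), against 0.00% under all labels. The vehicle mean was 9239 ± 3751 (SD, n = 7) and the SXB mean 19615 ± 4357 (n = 7). Hamp rose by 1.18 on the log2 scale (SE 0.27, limma adjusted p = 0.0263). In this comparison 18.3% of the 306 genes passed, and 6.21% passed as higher with SXB. The exact permutation test gave an adjusted p of 0.0382, the smallest it gave any gene, and 61 of the 306 genes passed it. Groups without overlap always give this test its smallest p, so it repeats the separation and adds no separate evidence. In the authors' deposited table the log2 fold change of Hamp is 1.10 and the adjusted p 0.0467. Those values are from the authors' own test, whose grouping of libraries 16 and 18 is not stated. They are not a result for these 14 libraries.

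Libraries 16 and 18 aside, the Hamp difference was about as large within libraries 1 to 4 as without them. Among these 4 the vehicle library held 7365 and the 3 SXB libraries 18432 ± 3583 (SD). In the 14 libraries, with a model term for libraries 1 to 4, the log2 difference was 1.23 (SE 0.30, limma adjusted p = 0.0285). With libraries 1 to 4 left out as well, the means were 9551 ± 4008 (n = 6) and 20503 ± 5193 (n = 4), again without overlap. The log2 difference was then 1.21 (SE 0.39, limma adjusted p = 0.123), about the same size but no longer past the threshold. Leaving out SXB library 2 from the 14 libraries also ended the call (limma adjusted p = 0.0565). Under the labels of all 16 but without libraries 1 to 4, the log2 difference was 0.78 (SE 0.46, limma adjusted p = 0.552). Of a list of 32 genes of hepcidin and iron handling, Hamp alone is in the table of T and none is in that of P, so no iron sensor, transporter or store could be set beside it.

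**Figure D1:**
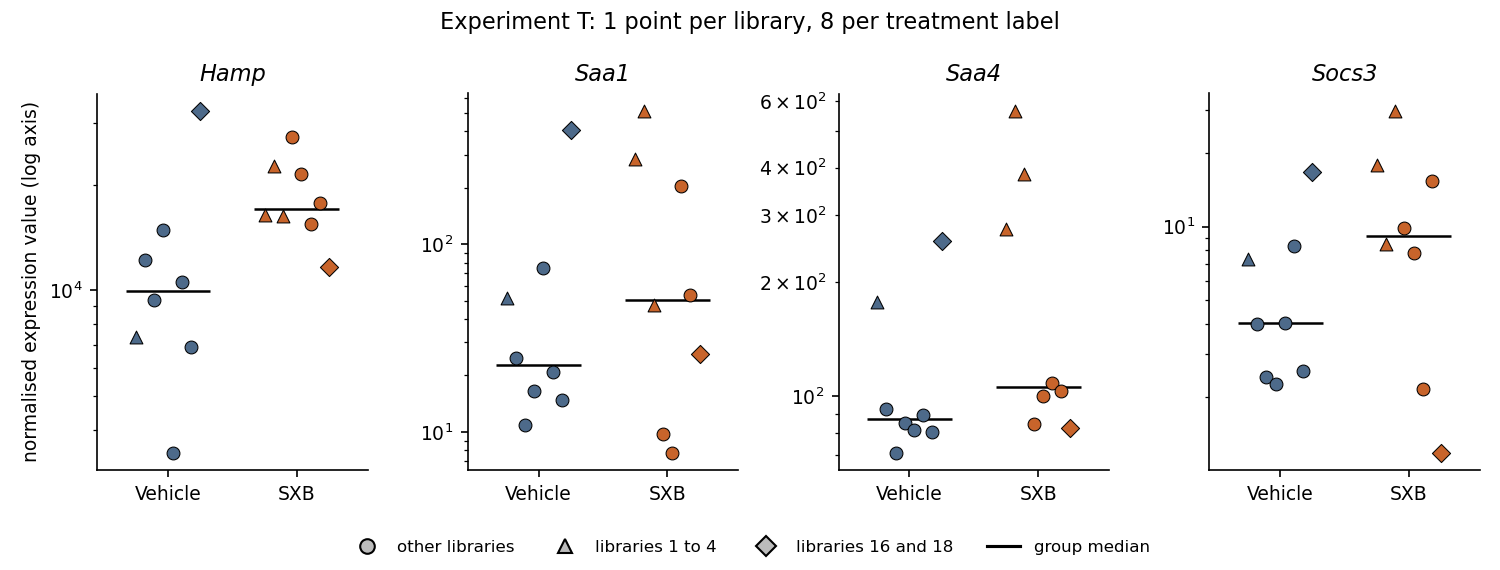
Value of Hamp, Saa1, Saa4 and Socs3 (the authors' normalised expression values, log axis) in each of the 16 liver libraries of experiment T, by treatment label, with a line at the group median and separate symbols for libraries 1 to 4 and for libraries 16 and 18. Hamp of the SXB libraries lay between 11692 and 27352, and library 16, labelled vehicle, was at 32560.

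Socs3, the inhibitor that shuts off JAK and STAT signalling below the interleukin-6 receptor family, had higher values with SXB in T but did not pass. With vehicle the lowest value was 2.26, the median 4.01 and the highest 16.8, in library 16. With SXB the lowest was 1.18, in library 18, the median 9.16 and the highest 29.9, in library 3. The lowest and the highest value of all 16 libraries were thus both SXB libraries, and the groups overlapped. The means were 5.97 ± 4.93 (SD, n = 8) and 11.6 ± 9.35 (n = 8), with a log2 difference of 0.68 (SE 0.53, limma adjusted p = 0.318). With these libraries left out the means were 4.42 ± 2.47 (n = 7) and 13.1 ± 9.03 (n = 7). The log2 difference was 1.21 (SE 0.44, limma adjusted p = 0.0605), just short of the threshold. SXB library 12, at 2.16, then still lay below all vehicle libraries. With a pseudocount of 0.1 it passed (1.37, limma adjusted p = 0.0474), and with only genes of a mean of at least 1 it passed as well (limma adjusted p = 0.0361). In the authors' deposited table Socs3 has an adjusted p of 0.00801, from their own test, whose grouping of libraries 16 and 18 is not stated. Without libraries 1 to 4 under all labels the log2 difference was 0.20 (SE 0.59).

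Saa1, an apolipoprotein of high-density lipoprotein that is strongly induced in inflammation, varied more within each group than between them. Its vehicle values ran from 10.9 (library 8) over a median of 22.8 to 408.7 (library 16). Its SXB values ran from 7.73 (library 9) over a median of 50.6 to 516.2 (library 2). SXB libraries 7 and 9 held the lowest values of all 16 libraries and SXB library 2 the highest, so the SXB group enclosed the vehicle group. The means were 77.8 ± 135 (SD, n = 8) and 144 ± 181 (n = 8), and the log2 difference was 0.76 (SE 0.94, limma adjusted p = 0.505). In the 14 libraries without 16 and 18 the means were 30.6 ± 23.6 (n = 7) and 161 ± 189 (n = 7), with a log2 difference of 1.43 (SE 0.90, limma adjusted p = 0.174). Without libraries 1 to 4 under all labels the sign turned, to -0.15 (SE 1.02). The ratio of the means was 1.85 under all labels and 5.25 in the 14 libraries. In the authors' deposited table the fold of Saa1 is 7.61 and the adjusted p 0.0203. The deposited folds depart from the ratios of means under all labels. Listing required an absolute log2 fold change above 1. Under all labels the ratio of means fell short of that for Saa1 and also for Hamp (1.53), Saa4 (1.83) and Socs3 (1.94). For Il1r1 the deposited fold is 2.52, against a ratio of 1.08 under all labels and 1.95 in the 14 libraries. The grouping of libraries 16 and 18 behind the deposited folds is not stated.

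Saa4, the serum amyloid A protein that the liver makes also without inflammation, fell into separate clusters of libraries. In 11 libraries of both labels its value lay between 71.0 and 109. In the other 5 it lay between 177 and 565. These 5 are SXB libraries 1, 2 and 3 and vehicle libraries 4 and 16, so they are libraries 1 to 4 and the vehicle library placed among the SXB columns. Over all 16 libraries the vehicle mean was 117 ± 65.5 (SD, n = 8) and the SXB mean 213 ± 180 (n = 8), and the log2 difference was 0.62 (SE 0.43, limma adjusted p = 0.280). Without libraries 16 and 18 it was 0.94 (SE 0.43, limma adjusted p = 0.101). Without libraries 1 to 4 under all labels it was -0.04 (SE 0.28). With both sets left out the means were 83.4 ± 7.56 (n = 6) and 99.1 ± 10.4 (n = 4), and the log2 difference was 0.24 (SE 0.09, limma adjusted p = 0.148). The libraries then left out include all 5 with high Saa4. In the authors' deposited table the fold of Saa4 is 2.29 and the adjusted p 0.0114, with the grouping of libraries 16 and 18 again not stated. With libraries 1 to 4 as a model term the log2 difference was 0.20 (SE 0.27, limma adjusted p = 0.570) under all labels. Without libraries 16 and 18 it was 0.46 with the term (SE 0.18, limma adjusted p = 0.0752). Each was smaller than without the term.

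Saa2, the near copy of Saa1, followed it across libraries. The ratio of Saa1 to Saa2 stayed between 0.624 and 1.56 over the 16 libraries, while Saa1 itself ran from 7.73 to 516.2. The log2 difference of Saa2 was 0.59 (limma adjusted p = 0.623), and 1.18 (limma adjusted p = 0.271) without libraries 16 and 18. Of a list of 31 acute phase genes, Saa1, Saa2 and Saa4 are in the table of T. All 3 were higher with SXB, as were 148 of the 306 genes, and none passed, also without libraries 16 and 18, where 6.21% of the genes passed as higher. Their median log2 difference was 0.62, against -0.02 over the 306 genes, and 1.18 against -0.04 without libraries 16 and 18.

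Of 26 genes of interleukin-6, interleukin-1 and STAT3 signalling, 4 are in the table of T. These are Socs3, Il1r1 (the interleukin-1 receptor), Socs1 (a second inhibitor of JAK kinases) and Myc (a growth regulator that STAT3 can switch on). All 4 were higher with SXB, as were 148 of the 306 genes, with a median log2 difference of 0.49, and none passed, where 0.00% of the genes did. In the 14 libraries the median was 0.94 and again none passed, where 6.21% of the genes passed as higher. Il1r1 was 12.4 to 17.4 in SXB libraries 1, 2 and 3 and 27.3 in library 16, and between 2.42 and 6.62 in all others. Its 4 high libraries are also high for Saa4, while vehicle library 4, at 5.4, was high for Saa4 and not for Il1r1. Its log2 difference was 0.20 (limma adjusted p = 0.696), and 0.66 (limma adjusted p = 0.109) without libraries 16 and 18. That of Myc was 1.41 (limma adjusted p = 0.191), and 1.63 (limma adjusted p = 0.0969) in the 14 libraries.

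In experiment P, Orm2 and Saa3 were high in a few libraries of each group, and neither passed. Orm2 encodes an orosomucoid, an abundant plasma glycoprotein of the acute phase. With vehicle its lowest value was 8.03, its median 9.89 and its highest 896.8, in library 34. With SXB its lowest value was 4.78, its median 10.6 and its highest 163.4, in library 25. The medians were thus close to each other and the groups overlapped, with vehicle libraries 33 and 34 above all SXB libraries and SXB libraries 23 and 30 below all vehicle libraries. Orm2 lay between 57.9 and 897 in 6 libraries, which are vehicle libraries 33, 34 and 35 and SXB libraries 19, 25 and 28. In the other 10 it lay between 4.78 and 11.7. The vehicle mean was 203 ± 335 (SD, n = 8) and the SXB mean 43.4 ± 56.8 (n = 8), so each SD exceeded its mean. The log2 difference was -0.92 (SE 1.17, limma adjusted p = 0.452), in a comparison in which 38.8% of the 242 genes passed.

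Saa3, the serum amyloid A protein that macrophages and fat cells make as well as the liver, had the same high libraries. With vehicle its lowest value was 3.33, its median 8.21 and its highest 265.1, in library 34. With SXB its lowest value was 1.82, its median 6.41 and its highest 20.7, in library 25. Vehicle libraries 33, 34 and 35, at 82.3, 265.1 and 23.97, lay above all SXB libraries, and the other 5 vehicle libraries lay within the SXB range. The means were 50.3 ± 90.7 (SD, n = 8) and 9.29 ± 7.38 (n = 8), with a log2 difference of -1.14 (SE 0.82, limma adjusted p = 0.202). Groups without overlap were found for 2.89% of the genes of P, and neither Orm2 nor Saa3 was among them.

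Both differences in P rested on vehicle libraries 33, 34 and 35. Without them the vehicle mean of Orm2 was 9.03 ± 0.980 (SD, n = 5), and the log2 difference turned to 1.09 (SE 0.81, limma adjusted p = 0.287). That of Saa3 turned to 0.20 (SE 0.53, limma adjusted p = 0.758), with vehicle at 6.22 ± 2.28 (n = 5). In that comparison 22.3% of the genes passed. These libraries had been picked for high values and from 1 group only, so the turned signs do not show an increase under SXB. In the authors' deposited table the adjusted p is 0.397 for Orm2 and 0.170 for Saa3.

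**Figure D2:**
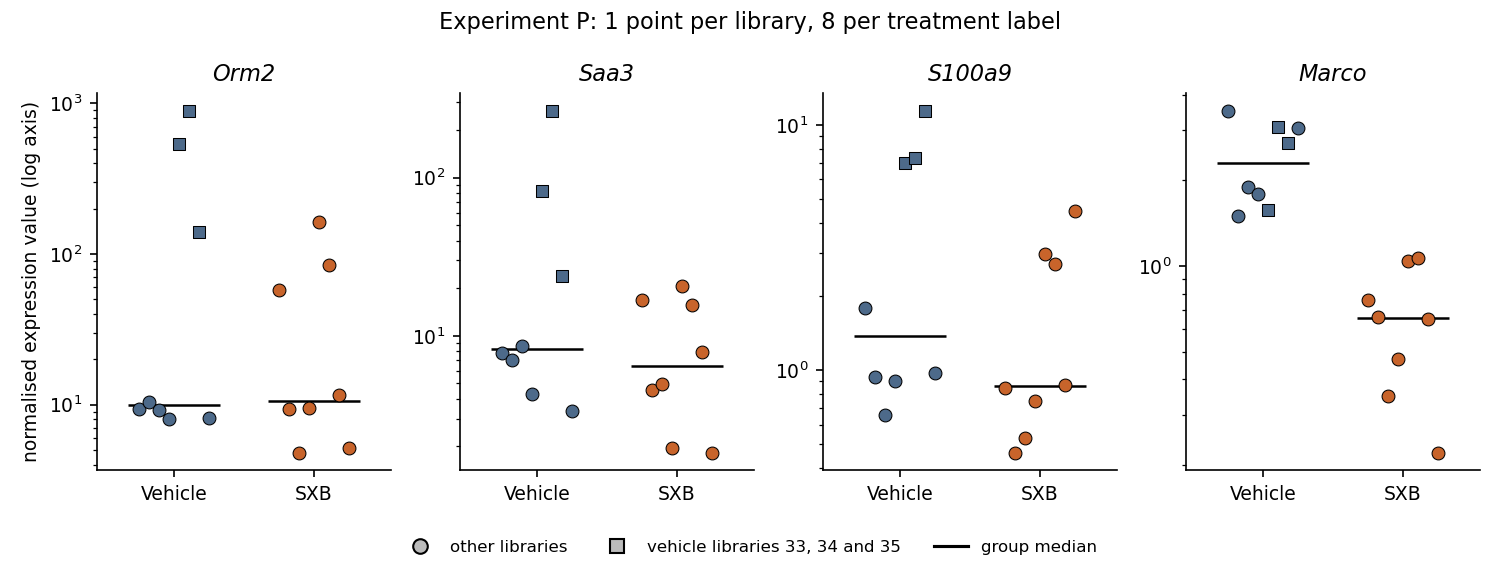
Value of Orm2, Saa3, S100a9 and Marco (the authors' normalised expression values, log axis) in each of the 16 liver libraries of experiment P, by treatment label, with a line at the group median and separate symbols for vehicle libraries 33, 34 and 35. Those vehicle libraries held Orm2 at 140.1 to 896.8, and 5 vehicle libraries and 5 SXB libraries lay at 11.7 or less.

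Markers of other cell types moved with P in part. All 5 listed genes of 11 for resident liver macrophages (Marco, Cd5l, Timd4, C1qb and Adgre1) fell, as did 201 of the 242 genes. Their median log2 difference was -0.90, against -0.17 over the 242 genes. The -0.17 includes many low genes, whose change log2(value + 1) understates. Over the 47 genes with a mean of at least 1 the median was -0.66. The summed value of the 5 markers ran from 45.6 to 100.4 with vehicle and from 29.1 to 44.1 with SXB, so these sums did not overlap. Gene by gene, the groups were apart for Marco and overlapped for Cd5l, Timd4, C1qb and Adgre1. C1qb, with a vehicle mean of 49.3, weighs most in the sum. All 5 genes are listed because the authors' test picked them on this contrast, so the sums are a description only. Of 10 neutrophil markers, S100a9 (a calcium-binding protein of granulocytes) and Ngp (a granule protein) are in the table, and neither passed. Their sum was 7.43, 7.64 and 12.1 in vehicle libraries 33, 34 and 35 and at most 1.79 in the other vehicle libraries. With SXB it was 0.46 to 4.52, with 3.02 in library 25 and 2.81 in library 28, which had high Orm2. SXB library 19, with high Orm2 too, had a sum of 0.85, and library 30, with the highest SXB sum, had one of the lowest Orm2 values. Ngp was listed at 0 in 8 of the 16 libraries. The part of these cells in the Orm2 and Saa3 values was not tested.

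Of the 31 acute phase genes, Saa3, Orm2 and Cd14 are in the table of P, all 3 lower with SXB, as were 201 of the 242 genes, with a median log2 difference of -0.92. Of these 3, 1 passed, where 38.8% of the genes did. Cd14, the co-receptor for bacterial lipopolysaccharide, fell by 0.51 (SE 0.18, limma adjusted p = 0.0412), and did not pass without vehicle libraries 33, 34 and 35 (-0.15, limma adjusted p = 0.192). Il1b, the cytokine interleukin-1 beta, was the listed gene of the 26 signalling genes and fell by 0.65 (SE 0.13, limma adjusted p = 0.00284). It also passed without those libraries (-0.54, limma adjusted p = 0.0328). Its value with vehicle ran from 1.73 to 3.8 and with SXB from 0.93 to 2.56.

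In T, no marker of resident liver macrophages or of neutrophils is in the table, so these cells could not be set beside Hamp or the serum amyloid A genes. None of the 8 hepatocyte markers is in either table. Of 8 adipose tissue markers, Cfd and Cidec are in T. Both were lower with SXB and neither passed under all labels. Without libraries 16 and 18 Cfd passed, where 18.3% of the 306 genes passed and 37 genes passed as lower. In P, Cidec was lower and did not pass. Of the 13 mitochondrially encoded genes, mt-Atp6 is in T (log2 difference 2.92, limma adjusted p = 0.319, and 3.34 with 0.233 without libraries 16 and 18) and mt-Co3 in P (1.23, limma adjusted p = 0.217).

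**Figure D3:**
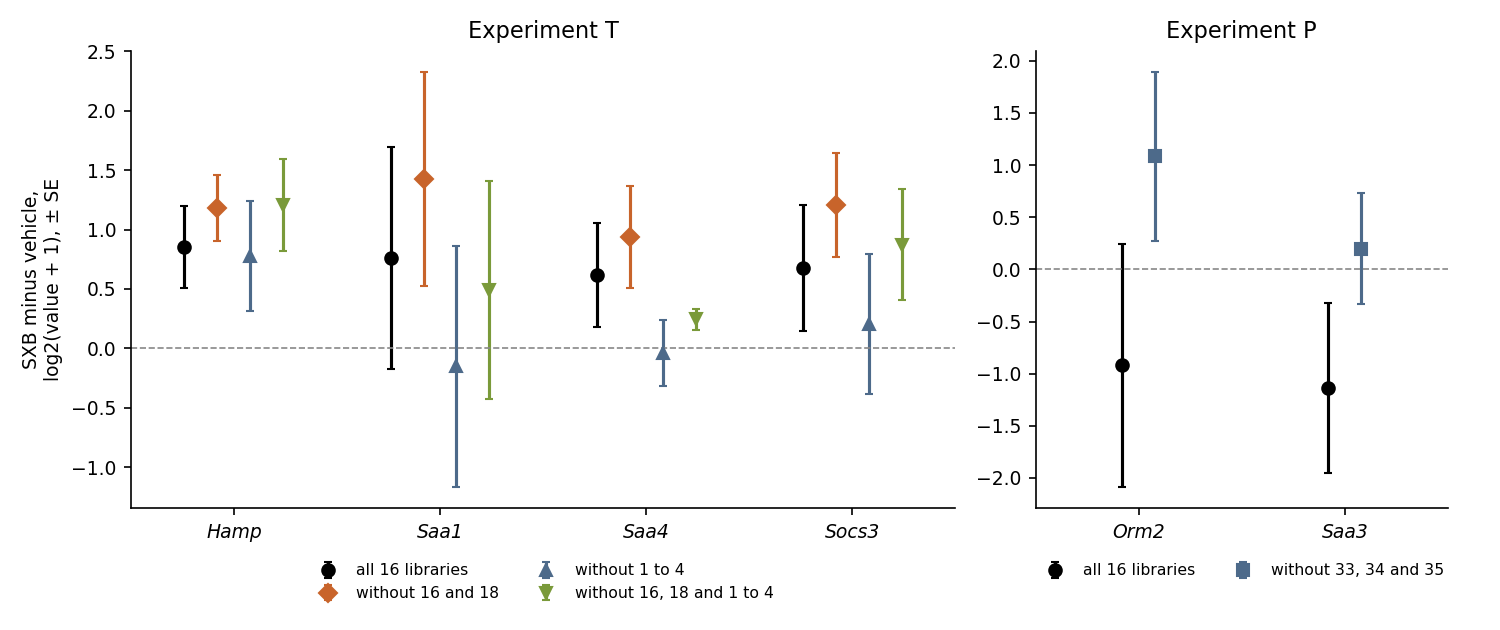
Log2 difference, SXB minus vehicle, of log2(value + 1) for each of the 6 genes, with bars of 1 standard error, for all libraries and for the sets with libraries left out. Hamp stayed between 0.78 and 1.21 in T, while Saa1, Saa4, Orm2 and Saa3 each turned sign in 1 setting.

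Whether the genes moved together from library to library was asked of their deviations from the group means, for 7 pairs over all 16 libraries, with p-values from 100000 permutations within groups. The pair of Orm2 and Saa3 and the pair of Saa1 and Saa4 passed. Both genes of a pair are listed because the authors' test picked them on these same libraries. A few libraries high for both genes can enter the listing and the likeness alike, so these p-values are not independent evidence. Orm2 and Saa3 gave Pearson's r = 0.94 and Spearman's rho = 0.87 (permutation adjusted p = 7e-05 and 0.00091), and the unadjusted p of r, 1e-05, is the smallest that these permutations can give. Without vehicle libraries 33, 34 and 35 they gave r = 0.86 and rho = 0.86, and without the 2 libraries farthest from the median of Orm2 r = 0.89. Saa1 and Saa4 gave r = 0.73 and rho = 0.69 (permutation adjusted p = 0.0136 and 0.0211), r = 0.64 and rho = 0.62 without libraries 16 and 18, and r = 0.50 without the 2 libraries farthest from the median of Saa1. Saa4 and Socs3 gave r = 0.62 and rho = 0.55 and did not pass (permutation adjusted p = 0.0563 and 0.0977).

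Hamp passed with none of the other genes of T. With Saa1 it gave r = 0.15 and rho = -0.01 (permutation adjusted p = 0.537 and 0.961), and r = -0.41 and rho = -0.31 without libraries 16 and 18. With Socs3 it gave r = 0.38 and rho = 0.28 (permutation adjusted p = 0.171 and 0.416), and with Saa4 r = 0.30 and rho = 0.22 (permutation adjusted p = 0.239 and 0.432). Without libraries 16 and 18 both of these turned to small negative values. With libraries 1 to 4 left out instead (n = 12), both rose, to r = 0.68 and rho = 0.51 with Saa4 and r = 0.55 and rho = 0.55 with Socs3. Hamp with Saa1 then gave r = 0.17 and rho = -0.19. No p-value was computed for the sets with libraries left out. Saa1 and Socs3 gave r = 0.31 and rho = 0.40 (permutation adjusted p of 0.262 or above).

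The libraries form separate clusters for Saa4 and for Orm2, and the pooled values above span them, so 8 relations were also computed as single clusters allow. Among the 11 libraries with low Saa4, it gave r = 0.50 and rho = 0.60 with Saa1 and did not pass (permutation adjusted p = 0.487 and 0.361). The 5 libraries with high Saa4 were too few for a value. Orm2 and Saa3 gave r = 0.41 and rho = 0.28 among the 10 libraries with low Orm2 (permutation adjusted p of 0.389 or above). Among the 6 with high Orm2 they gave r = 0.89 and rho = 0.94, and r = 0.79 without the 2 farthest. With 3 libraries of each label these 6 allow only 36 arrangements within groups, whose smallest p is 0.0278, which becomes 0.222 when multiplied by the number of relations, so this cluster on its own was too small to pass.

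**Figure D4:**
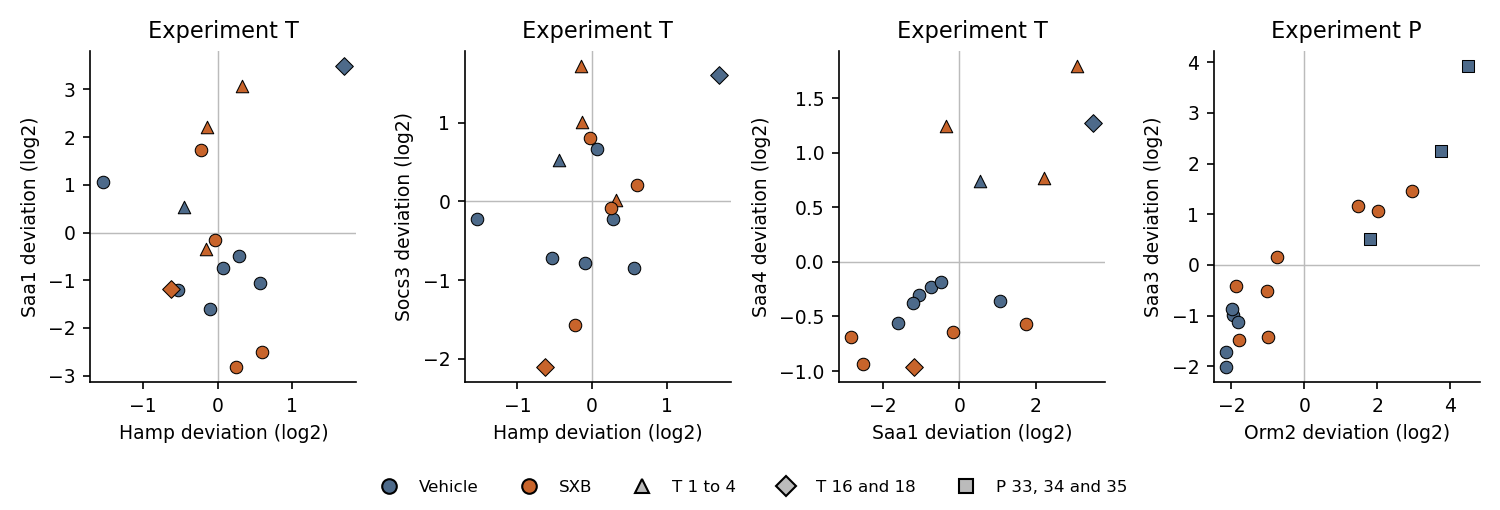
Deviation of each library from its group mean on the log2(value + 1) scale for Saa1 and Socs3 against Hamp, Saa4 against Saa1, and Saa3 against Orm2, with colours for the treatment label and symbols for the libraries that stand apart. Saa4 splits into 11 low and 5 high libraries and Orm2 into 10 low and 6 high ones, while Hamp shows no relation to Saa1 that passed a test.

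The genes of each table most like a member were ranked by Spearman's rho of the same deviations over the 16 libraries, as a description, among 59 candidates in T and 40 in P with a mean of at least 1. Clusters of libraries enter these ranks. Nearest to Hamp were Gadd45g (rho = 0.49), Cspg5 (0.34) and Foxq1 (0.33), all below the first rank of each of the other 5 genes. Nearest to Socs3 were Gadd45g (0.85), a stress-induced growth arrest gene, Foxq1 (0.76), a forkhead factor, and Myc (0.71). Gadd45g had a vehicle mean of 27.7 ± 23.7 (SD, n = 8) and an SXB mean of 63.7 ± 43.0 (n = 8), and did not pass (log2 difference 0.94, limma adjusted p = 0.286). It did not pass in the 14 libraries either, with a log2 difference of 1.62 (limma adjusted p = 0.0518).

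Nearest to Saa1 were Saa2 (rho = 0.92), the neutrophil-attracting chemokine gene Cxcl1 (0.87) and Asns (0.73), which encodes asparagine synthetase. Cxcl1 had a vehicle mean of 21.1 ± 37.3 (SD, n = 8) and an SXB mean of 15.9 ± 14.7 (n = 8), so its vehicle mean was the larger, while its log2 difference was 0.15 (limma adjusted p = 0.840). In the 14 libraries without 16 and 18 its means were 7.99 ± 4.04 (SD, n = 7) and 17.4 ± 15.2 (n = 7), with a log2 difference of 0.76 (limma adjusted p = 0.189). Nearest to Saa4 were the citrate transporter gene Slc13a5 (0.89), Ppp4r4 (0.87), a regulatory subunit of protein phosphatase 4, and Il1r1 (0.81). Saa1 and Saa4, which lie side by side in the genome, thus had no nearest gene in common. Nearest to Orm2 were Cdkn1a (0.89), an inhibitor of the cell cycle, Saa3 (0.87) and the chemokine gene Ccl6 (0.85), and nearest to Saa3 were Orm2 (0.87), Cdkn1a (0.85) and Ccl6 (0.81). Cdkn1a was 6.49 ± 13.5 with vehicle and 1.14 ± 0.515 with SXB (SD, n = 8 each) and did not pass (log2 difference -0.62, limma adjusted p = 0.334). Without vehicle libraries 33, 34 and 35 its log2 difference turned to 0.46 (limma adjusted p = 0.0544).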

How the data were processed

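Per the labels, total RNA was isolated with TRIzol and read on an Illumina HiSeq in pairs of 150 bases. HISAT2, StringTie, RSEM, fastp and DESeq2 and the build GRCm38 are named in the submitters' processing notes, with no version or role. The authors deposited 1 table per experiment with a signal per gene and library, an expression value they normalised, rounded to 0.01. The comparison columns hold a fold (a linear ratio), its log2, a p-value and an adjusted p-value of the authors, under deposited headers shifted by 1 column, and those of T are named as for P. The values show that only genes with an absolute log2 fold change above 1 and an unadjusted p-value below 0.05 in the authors' test are listed. An exact 0 can be a failed estimate. No column of library values was set aside, and depth is unknown.

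Groups were taken from the treatment labels. Values were tested as log2(value + 1) with limma 3.58.1 in R 4.3.3, SXB against vehicle within each experiment over all listed genes, with Benjamini-Hochberg adjustment and a threshold of 0.05, and a log2 difference on this scale understates the change of low genes. Fold values are ratios of means. An exact two-sided permutation test over all 12870 assignments of the 16 libraries of an experiment, or those of the 14, was run beside it. The scripts were checked on simulated data. Alternatives were a pseudocount of 0.1, a mean of at least 1, trend and robust fitting, each library left out, libraries 16 and 18 left out, libraries 1 to 4 left out or as a term, and vehicle libraries 33, 34 and 35 left out. Correlations without libraries 1 to 4 or within clusters of libraries were chosen after seeing the data.

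The 6 genes, the lists (acute phase, interleukin-6, interleukin-1 and STAT3 signalling, hepcidin and iron handling, resident liver macrophages, neutrophils, hepatocytes, adipose tissue and mitochondrially encoded genes) and the tests were chosen with earlier results of these data known. Genes named are the 6, every listed gene of these lists and, for each of the 6, the 3 genes nearest in rank correlation. Positions are from GENCODE for GRCm38 and promoters from RefSeq (GRCm38.p6). Figures were drawn with matplotlib 3.10.9, and other steps used scipy 1.17.1.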

Additional observations from a re-analysis of the deposited data

How the results depend on the processing

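Of 308 alternatives run over all results, 278 were counted as the same, which for a difference means its direction and its side of the threshold. A result that did not pass was thus the same whenever it kept its sign and still did not pass, whatever its size. Socs3 under all labels, for example, went from 0.68 to 0.20 without libraries 1 to 4 and was counted so. The 278 therefore do not measure how stable the sizes were. In T 0 genes passed under all labels, 56 without libraries 16 and 18, 50 with libraries 1 to 4 also as a term and 4 with libraries 1 to 4 also left out. From the 56, a pseudocount of 0.1 gave 106, and leaving out 1 library gave 3 to 76. Omitting SXB library 2 left 3 genes, omitting vehicle library 10, 4, 11, 8 or 15 left 16, 19, 25, 30 or 33, and omitting SXB library 1, 13 or 12 left 29, 29 or 31. Hamp passed with 1.18 without libraries 16 and 18 and with 1.23 with the term, and did not with 1.21 when libraries 1 to 4 were left out too. Leaving out 1 of the 14 libraries gave 0.97 to 1.32 for Hamp. Socs3 then ranged from 0.97 to 1.52 and passed without vehicle library 14 or SXB library 12, and it passed with a pseudocount of 0.1 (1.37) or a mean of at least 1 (1.21). Without libraries 1 to 4 under all labels, Saa1 (-0.15) and Saa4 (-0.037) turned sign. In P 94 genes passed, 26 when only genes with a mean of at least 1 were tested, and 54 without vehicle libraries 33, 34 and 35, where Orm2 (1.09) and Saa3 (0.20) turned sign. Without libraries 16 and 18, rho turned to -0.015 for Hamp with Saa4 and to -0.10 for Hamp with Socs3. Without libraries 1 to 4 the same pairs gave 0.51 and 0.55. The cause of these shifts was not tested.

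No paired analysis was possible because the groups compared share no replicate numbers in the labels. Without counts, depth and counting error cannot be given.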
